A study of Mus musculus and Rattus norvegicus with 18 samples.

Results

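The genes described here are 35 genes of glucose transport, glycolysis, lactate handling and glycogen metabolism. They were listed by name, with earlier results of these data known. The list holds 5 glucose carriers, 15 glycolytic enzymes, and 3 lactate dehydrogenases with 1 lactate carrier. It also holds 4 genes of glycogen synthesis, 5 genes of glycogen breakdown and 2 phosphoglucomutases. The listed genes are 35 of the 55487 gene IDs in the heart RNA table. All 35 were found in the heart RNA and footprint tables and 34 in the rat H9C2 table, where Gapdh was not matched and was not analysed here.

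The series concerns loss of Mettl1, a methyltransferase that modifies guanosine in tRNAs, in the heart. Hearts of 4-week-old C57BL/6 mice were profiled by RNA-seq, for RNA levels, and by Ribo-seq, for stretches of RNA protected by ribosomes (footprints). Both assays had 2 control libraries (Ctrl) and 2 libraries of a Mettl1 conditional knockout (cKO). The labels name neither the alleles of the controls, nor the Cre driver, nor the cells that lost the gene. H9C2, a line of myoblasts derived from the embryonic heart of the rat and labelled Sprague-Dawley, was grown in high-glucose DMEM with serum. It was measured by RNA-seq in 3 samples with normal Mettl1 (WT) and 3 samples of 1 line with a CRISPR-Cas9 frameshift in Mettl1 (Mettl1-null). The labels do not tell whether replicates came from different animals or dishes. The p-values therefore rest on a spread between samples that may be technical only.

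Glucose enters muscle cells through facilitative carriers. Glycolysis splits it to pyruvate, and lactate dehydrogenase interconverts pyruvate and lactate. Glucose can instead be stored as glycogen, which is started on the protein glycogenin, lengthened by glycogen synthase and branched by the branching enzyme, and is released again by glycogen phosphorylase once phosphorylase kinase has activated it. The fetal heart relies on glucose and lactate, and the adult heart draws most of its energy from fatty acids. Most steps have several isozymes, and muscle-type forms such as Pfkm, Pgam2, Eno3 and Pygm stand beside widely expressed forms.

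To show the regulatory sequence next to genes that moved in these data, 5 promoters are printed, each as the 250 bases before a RefSeq start site on GRCm38.p6, read 5′ to 3′ along the gene. Ldha and Ldhb encode the subunits of 1 enzyme, and Ldha, Pfkm and Slc2a12 fell and Gyg rose in the hearts described below. Capitals mark matches on either strand to CACGTG (the E-box read by Usf, Myc and Mlx family factors) or ACGTG (the core of the hypoxia response element, which overlaps CACGTG). They also mark CTANNNNTAG (the outer letters of the Mef2 site, with any base at N) and AAGGTCA (the binding core of estrogen-related receptors). The windows are chr7:46845554-46845803 on the plus strand for Ldha, chr6:142507958-142508207 on the minus strand for Ldhb, chr15:98092339-98092588 on the plus strand for Pfkm, chr10:22644761-22645010 on the plus strand for Slc2a12 and chr3:20155117-20155366 on the minus strand for Gyg.
Ldha: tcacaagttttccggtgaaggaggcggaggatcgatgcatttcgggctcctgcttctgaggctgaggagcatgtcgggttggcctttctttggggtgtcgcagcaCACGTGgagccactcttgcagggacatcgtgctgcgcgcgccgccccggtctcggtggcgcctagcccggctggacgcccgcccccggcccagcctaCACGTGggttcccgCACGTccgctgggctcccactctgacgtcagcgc
Ldhb: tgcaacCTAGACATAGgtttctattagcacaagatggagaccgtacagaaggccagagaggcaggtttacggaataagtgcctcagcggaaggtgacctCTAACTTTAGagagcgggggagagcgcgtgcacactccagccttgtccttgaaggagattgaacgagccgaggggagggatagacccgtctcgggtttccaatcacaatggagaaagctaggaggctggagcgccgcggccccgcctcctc
Pfkm: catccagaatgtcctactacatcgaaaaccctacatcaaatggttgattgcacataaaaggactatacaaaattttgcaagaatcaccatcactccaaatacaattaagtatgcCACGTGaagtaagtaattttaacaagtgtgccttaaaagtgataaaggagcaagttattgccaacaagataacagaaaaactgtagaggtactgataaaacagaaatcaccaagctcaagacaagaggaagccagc
Slc2a12: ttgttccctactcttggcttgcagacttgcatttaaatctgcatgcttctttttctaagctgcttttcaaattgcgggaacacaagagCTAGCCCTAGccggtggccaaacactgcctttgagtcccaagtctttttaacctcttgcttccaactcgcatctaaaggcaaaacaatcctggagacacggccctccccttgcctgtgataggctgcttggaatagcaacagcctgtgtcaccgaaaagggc
Gyg: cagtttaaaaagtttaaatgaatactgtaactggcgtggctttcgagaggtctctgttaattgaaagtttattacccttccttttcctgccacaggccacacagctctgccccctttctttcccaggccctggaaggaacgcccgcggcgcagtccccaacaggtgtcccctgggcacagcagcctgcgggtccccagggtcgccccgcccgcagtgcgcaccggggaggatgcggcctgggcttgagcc
The Ldha window printed held CACGTG with its first base 145 and 48 bases before the start, and the Pfkm window printed held it 136 bases before. Both are the most upstream of several RefSeq windows of their gene. The other Pfkm windows, which start at 98108221, 98108306 and 98111810, and the other Ldha window, which starts at 46846832, held no CACGTG. The Ldhb window held CTANNNNTAG at 244 and 151 bases, the Slc2a12 window held it at 162 bases, and the Gyg window held none of the letters searched. The bases at N were not restricted, and each of these matches holds G or C there, so they are not matches to the full Mef2 site. RefSeq promoters were matched for 33 of the 35 genes (not Slc2a3 and Slc2a4), 44 windows in all. CACGTG was in 3 of the 44 (6.82%, in 1 window each of Ldha, Ldhd and Pfkm) against 6.02% of all 32851 promoters. CTANNNNTAG was in 3 (6.82%, in Ldhb, Phka1 and Slc2a12) against 3.2%. ACGTG was in 16 of the 44 (36.4%) against 16.6%, and AAGGTCA was in 1, that of Eno1 (2.27%), against 4.08%. A match is a description of letters and not a binding site.

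Library totals ran from 15.05 to 16.84 M counts in heart RNA, from 25.17 to 39.68 M in heart footprints and from 90.32 to 94.2 M in H9C2. Mettl1 (chromosome 10, 127041549 to 127046365, overlapping Eef1akmt3) stood at 4.31 and 3.76 CPM in Ctrl heart RNA and at 2.49 and 2.52 in cKO, where CPM are counts scaled to a common library size with TMM factors (adjusted p = 0.0664). Its footprints were 6.28 and 6.62 CPM in Ctrl and 2.22 and 2.22 in cKO (adjusted p = 0.000101). In H9C2 it was 16.6, 15.6 and 16.2 CPM in WT and 4.28, 4.72 and 3.75 in Mettl1-null (adjusted p = 1.1e-05). The libraries of the groups were apart in all 3 comparisons, although the heart RNA difference did not pass 0.05. Of 8 cardiomyocyte markers, all were in the heart tables, and their summed RNA level was 51180 to 51380 CPM in Ctrl. In H9C2, Myl2 and Ryr2 of the 7 markers found were at 0 and the sum was 25.4 to 27.7 CPM in WT and 12.5 to 14.4 in Mettl1-null, so the cardiomyocyte label of the line was not matched by these markers.

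In cKO hearts the carriers, glycolytic enzymes, lactate enzymes and breakdown genes that changed all fell, and of the genes of glycogen synthesis 3 rose and 1 fell. In RNA, 11 of 34 tested genes fell (Slc2a4, Slc2a12, Pfkm, Eno3, Ldha, Ldhd, Gys1, Pygb, Phka1, Phkb and Phkg1) and 3 rose (Gyg, Gbe1 and Ugp2), while 20 did not pass adjusted p 0.05 in the quasi-likelihood test of edgeR, adjusted over all genes by Benjamini-Hochberg. Across all 14088 genes tested, 14.4% passed, 8.16% higher and 6.26% lower. In footprints, 15 of 33 tested genes fell (the same 11 with Slc2a8, Pfkl, Pgam2 and Pkm) and 2 rose (Gyg and Ugp2), against 16.4% of 13514 genes passing, 9.11% higher and 7.33% lower. The median log2 fold change of the tested members was −0.01 in RNA and −0.24 in footprints, against 0.00 over all genes in both. With library totals in place of TMM, 5 members rose (Eno1 and Tpi1 were added) and 8 fell in RNA, while the split over all genes went from 1150 higher and 882 lower to 1769 and 506. In footprints the same scaling gave 2 members higher and 12 lower, and 1639 genes higher and 657 lower against 1231 and 990.

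The cKO libraries were apart from the Ctrl libraries for 27 of the 34 tested genes in RNA, against 55.0% of all genes tested, and for 27 of 33 in footprints, against 55.9%. The 13 genes called in the same direction in both assays were 92.9% of the RNA calls and 76.5% of the footprint calls of the 35. Over all genes tested in both assays, the genes called in both were 60.4% and 54.6% of the calls. The labels do not say whether both assays used the same hearts. Without cKO 1, 1 member was called higher in RNA and 0 in footprints, and without Ctrl 1 footprints gave 1. Without cKO 2, 10 members were called lower in footprints. The RNA median was 0.003 without Ctrl 1, −0.049 without Ctrl 2, 0.002 without cKO 1 and −0.046 without cKO 2.

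**Figure D1:**
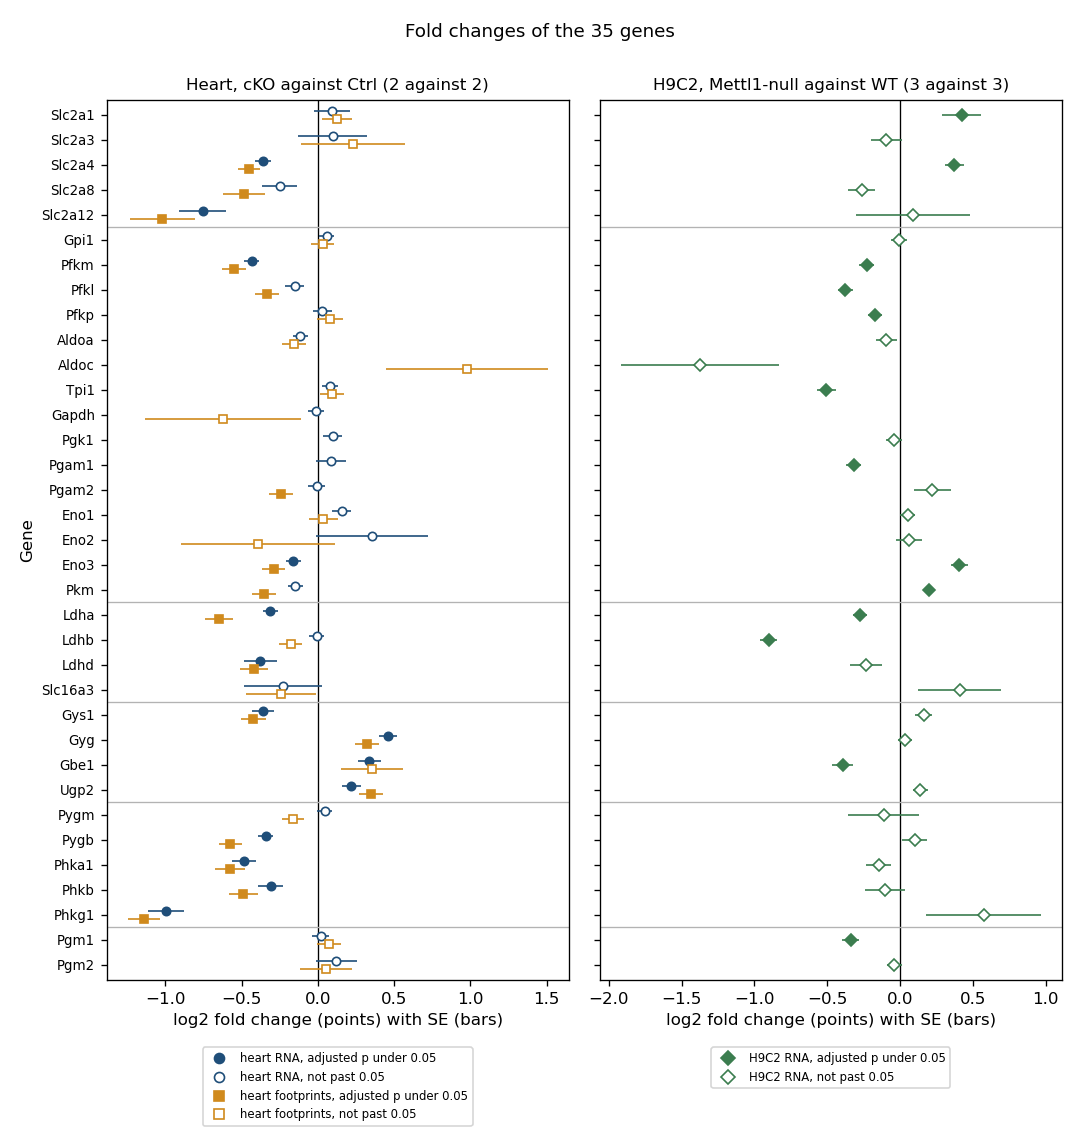
Log2 fold changes (horizontal axis, points with SE bars) of the 35 genes (vertical axis, ordered by role, with grey lines between roles) in heart RNA and footprints, cKO against Ctrl, on the left, and in H9C2 RNA, Mettl1-null against WT, on the right; filled symbols passed adjusted p 0.05. In the heart the filled symbols lie left of 0 except for Gyg, Gbe1 and Ugp2, with Phkg1 farthest left among the called genes at −0.996 in RNA and −1.14 in footprints, and in H9C2 Ldhb is the called gene farthest left at −0.90.

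Some markers of cell types moved in the same libraries. For comparison, 14.4% of all genes tested were called in heart RNA and 16.4% in footprints. Of 8 cardiomyocyte markers, all tested, 5 fell in cKO heart RNA (62.5%) and 3 in footprints (37.5%). Their summed RNA level was 51180 to 51380 CPM in Ctrl and 46820 to 47380 in cKO. In footprints the sums were 129500 to 135000 in Ctrl and 112500 to 113400 in cKO. Of 6 endothelial markers 2 fell in RNA (Pecam1 and Cldn5), with sums of 1468 to 1550 and 1336 to 1346 CPM, and Cdh5 fell in footprints, with sums of 830.9 to 845 and 619 to 751.7. Of 8 skeletal muscle markers 2 rose in RNA (Acta1 and Mylpf), with sums of 1787 to 1911 and 2747 to 3050 CPM, and 3 rose in footprints (Tnnt3 was added), with sums of 4108 to 5010 and 6473 to 6563. Acta1 alone carried the rise of both sums, with means of 188 and 1292 CPM in RNA and 434 and 3074 in footprints. Mylpf was at 0.575 and 2.62 CPM in RNA and 1.02 and 4.71 in footprints, and Tnnt3 footprints were at 0.0871 and 1.27. Of 6 erythroid markers 5 were tested in RNA and 3 rose (60.0%), and none passed in footprints. Their RNA sums were 1352 to 1471 CPM in Ctrl and 1479 to 2309 in cKO. The lower cKO sum lay close to the Ctrl sums, so most of the rise lay in the higher cKO library. Hbb-bs, for example, had a mean of 938 ± 43.4 CPM (SD) in Ctrl and 1280 ± 444 in cKO. Markers of fibroblasts, macrophages, pericytes and adipocytes gave no call in either assay, although some of their sums were apart. The pericyte and smooth muscle sum was 1081 to 1093 CPM in Ctrl RNA and 947.1 to 978.4 in cKO. Its footprint sum was 500.3 to 557.3 and 477.8 to 490.5. The macrophage sum was 576.7 to 600.7 in Ctrl RNA and 632 to 693.7 in cKO, and 1208 to 1210 and 1273 to 1330 in footprints. Fibroblast sums overlapped in both assays, and the adipocyte sum was apart in footprints alone (13.1 to 17 and 18.6 to 22.1). The part of these shifts in the values below was not tested, and in whole tissue fewer cells of a type and less RNA per cell cannot be told apart.

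Of the glucose carriers, Slc2a4 and Slc2a12 fell in heart RNA and footprints, Slc2a8 fell in footprints, and none of the 5 rose. Slc2a4 (ENSMUSG00000018566, chromosome 11, 69942286 to 69948216) encodes Glut4, the carrier that insulin and contraction bring to the surface of muscle cells. It stood at 355 and 368 CPM in Ctrl RNA and at 279 and 286 in cKO, and its footprints at 755 and 721 in Ctrl and 539 and 540 in cKO. Every cKO library lay below every Ctrl library, with log2 fold changes of −0.36 (SE 0.054, n = 2 against 2, adjusted p = 0.000334) in RNA and −0.45 (SE 0.075, adjusted p = 0.000633) in footprints. Slc2a12 (ENSMUSG00000037490, chromosome 10, 22644990 to 22703880, overlapping Tbpl1), another carrier of muscle and fat, had 10.9 and 9.55 CPM in Ctrl RNA and 6.25 and 5.88 in cKO. Its footprints were 5.28 and 6.62 CPM in Ctrl and 2.65 and 3.26 in cKO. The groups were again apart, at −0.75 (SE 0.154, adjusted p = 0.00358) and −1.02 (SE 0.214, adjusted p = 0.00386).

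Slc2a8, a carrier held mostly inside cells, had footprints of 13.8 and 17.6 CPM in Ctrl and 11.3 and 11.2 in cKO (−0.48, SE 0.137, adjusted p = 0.0246), and its RNA value of −0.25 did not pass (adjusted p = 0.169). Its footprint call was lost without Ctrl 2 (adjusted p = 0.213), cKO 1 (0.0863) or cKO 2 (0.0755) and with library totals in place of TMM (0.0545), within a range of 0.00346 to 0.213 over its alternatives, where the log2 fold change ran from −0.64 to −0.29. Slc2a1, which encodes the basal carrier Glut1, had log2 fold changes of 0.09 in RNA and 0.12 in footprints (adjusted p = 0.683 and 0.464), and Slc2a3, a high-affinity carrier of neurons, 0.10 and 0.23 (0.838 and 0.723).

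**Figure D2:**
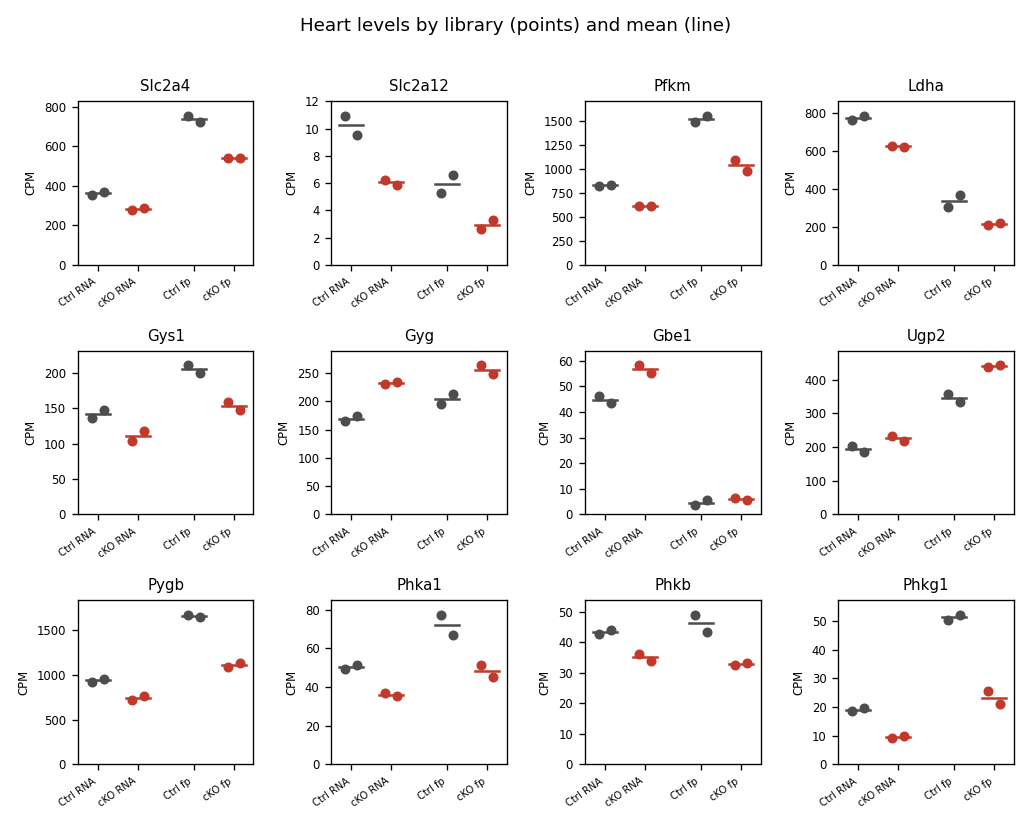
Levels of 12 genes in each heart library (points, CPM with TMM factors, linear axes from 0; lines are group means) for RNA and footprints (fp), Ctrl in grey and cKO in red. In every panel and assay the 2 cKO libraries lie apart from the 2 Ctrl libraries. They lie above them for Gyg, Gbe1 and Ugp2 and below them for the others. All differences passed adjusted p 0.05 except that of the Gbe1 footprints.

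Among the glycolytic enzymes, 2 of 14 tested fell in heart RNA (Pfkm and Eno3), 14.3% against 14.4% of all genes called in either direction, and 5 of 13 fell in footprints (Pfkm, Pfkl, Pgam2, Eno3 and Pkm), 38.5% against 16.4%. The share called in RNA was thus that of all genes. None rose with TMM factors, while with library totals Tpi1 (0.16, adjusted p = 0.0482, over 0.0482 to 0.789) and Eno1 (0.24, adjusted p = 0.0181, over 0.0181 to 0.515) passed as higher in RNA. Pfkm (ENSMUSG00000033065, chromosome 15, 98092589 to 98132447, overlapping Senp1) encodes the muscle form of phosphofructokinase, the committed step of glycolysis. Its RNA was 818 and 836 CPM in Ctrl and 616 and 609 in cKO, and its footprints were 1487 and 1553 in Ctrl and 1095 and 979 in cKO. The groups were apart in both assays, by −0.43 (SE 0.049, adjusted p = 2.5e-05) and −0.55 (SE 0.08, adjusted p = 0.000207). Pfkl, the liver form, had RNA of 90.7 and 93.0 CPM in Ctrl and 82.3 and 82.9 in cKO, which did not pass (−0.15, adjusted p = 0.132). Its footprints were 166 and 176 CPM in Ctrl and 138 and 134 in cKO (−0.33, SE 0.08, adjusted p = 0.009). Pfkp, the platelet form, had log2 fold changes of 0.03 and 0.08 (adjusted p = 0.818 and 0.59).

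Eno3, the muscle enolase, had RNA of 1297 and 1225 CPM in Ctrl and 1123 and 1135 in cKO (−0.16, SE 0.049, adjusted p = 0.0389), and footprints of 3105 and 3232 in Ctrl and 2652 and 2534 in cKO (−0.29, SE 0.074, adjusted p = 0.0139). Pkm, pyruvate kinase, whose splice forms are not resolved by gene counts, had RNA of 929 and 953 CPM in Ctrl and 847 and 851 in cKO, just outside the threshold (−0.15, adjusted p = 0.0508). Its footprints were 572 and 616 CPM in Ctrl and 466 and 464 in cKO (−0.35, SE 0.076, adjusted p = 0.00474). Pgam2, the muscle phosphoglycerate mutase, lay at the threshold in footprints, with 1317 and 1472 CPM in Ctrl and 1193 and 1170 in cKO (−0.24, SE 0.079, adjusted p just under 0.05), while its RNA was 364 and 369 CPM in Ctrl and 357 and 372 in cKO, with overlapping groups. The groups of Eno3, and those of Pkm, were apart in both assays.

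Several of these calls were lost under alternatives, while the direction stayed the same. Eno3 in RNA did not pass without Ctrl 1 (adjusted p = 0.316), cKO 1 (0.127) or cKO 2 (0.0703), with library totals (0.32) or in DESeq2 (0.166), over a range of 0.00495 to 0.32. Its log2 fold change was −0.15 without cKO 1, −0.17 without cKO 2, −0.12 without Ctrl 1 and −0.079 with library totals. In footprints Eno3 did not pass without cKO 1 (0.0619) or cKO 2 (0.146) or with library totals (0.0596), over 0.00138 to 0.146, at log2 fold changes of −0.33 to −0.22 over all alternatives. Pfkl footprints did not pass without cKO 1 (0.0659) or cKO 2 (0.0958), over 0.00126 to 0.0958, at −0.37 to −0.26. Pgam2 footprints did not pass without Ctrl 2 (0.187), cKO 1 (0.192) or cKO 2 (0.241) or with library totals (0.18), over 0.0143 to 0.241, at −0.32 to −0.16, with the value nearest 0 without Ctrl 2. Pkm RNA passed with relative-log-expression factors (0.0491) and with no count filter (0.0176), over 0.00997 to 0.389. Aldoa RNA, at −0.12, passed with no count filter (0.0453, over 0.0437 to 0.688), and Aldoa footprints, at −0.16 in the main test, passed without Ctrl 1 (0.0471, over 0.0471 to 0.664).

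The other glycolytic enzymes did not pass in either heart assay. In RNA Gpi1, Aldoa, Tpi1, Gapdh, Pgk1, Pgam1 and Eno1 lay between −0.12 (Aldoa) and 0.16 (Eno1) on the log2 scale. Gapdh, glyceraldehyde-3-phosphate dehydrogenase, had RNA of 1587 and 1461 CPM in Ctrl and 1507 and 1514 in cKO but footprints of 0.832 and 0.546 CPM in Ctrl and 0.499 and 0.375 in cKO. Pgk1 RNA was 172 to 197 CPM and Pgam1 RNA 22.5 to 25.2 CPM, while their footprints were at 0 in every library apart from 0.0289 CPM of Pgk1 in cKO 2. Gapdh, Pgk1 and Pgam1 have near-identical pseudogene copies, and the sources used here do not give the handling of reads with several matches, so their footprint levels are uncertain. Eno2 and Aldoc, the neuronal enolase and brain aldolase, were at 1.39 CPM or less in every heart library of either assay.

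Of the lactate genes, Ldha and Ldhd fell in both heart assays and Ldhb and Slc16a3 did not pass in either. Ldha (ENSMUSG00000063229, chromosome 7, 46842274 to 46855627, overlapping Gm39011) encodes the lactate dehydrogenase subunit typical of glycolytic muscle. Its RNA was 760 and 783 CPM in Ctrl and 623 and 620 in cKO (−0.31, SE 0.049, adjusted p = 0.000493). Its footprints were 303 and 366 CPM in Ctrl and 210 and 217 in cKO (−0.65, SE 0.091, adjusted p = 0.000155). All cKO libraries lay below all Ctrl libraries in both assays. Ldhb (ENSMUSG00000030246, chromosome 6, 142490249 to 142507957), the subunit typical of the heart, had RNA of 1075 and 1055 CPM in Ctrl and 1076 and 1042 in cKO, which overlap, and footprints of 1734 and 1622 in Ctrl and 1503 and 1464 in cKO (−0.18, adjusted p = 0.129).

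Ldhd, the mitochondrial D-lactate dehydrogenase (chromosome 8, 111625611 to 111630336, overlapping Znrf1), had RNA of 23.0 and 22.9 CPM in Ctrl and 18.7 and 16.5 in cKO (−0.38, SE 0.106, adjusted p = 0.0266) and footprints of 61.8 and 61.3 in Ctrl and 49.1 and 42.8 in cKO (−0.42, SE 0.094, adjusted p = 0.00606). Without cKO 2 neither call held (adjusted p = 0.203 and 0.122), and the RNA call was also lost with library totals (0.072) and in DESeq2 (0.156). Over the alternatives the adjusted p ran from 0.00958 to 0.203 in RNA and from 0.000228 to 0.122 in footprints. Slc16a3, the lactate exporter Mct4, was at 3.12 to 5.66 CPM in heart RNA with overlapping groups.

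Of the 4 genes of glycogen synthesis, Gyg, Gbe1 and Ugp2 rose and Gys1 fell in heart RNA. All 4 were thus called in RNA and 75.0% in footprints, against 14.4% and 16.4% of all genes. Gyg (ENSMUSG00000019528, chromosome 3, 20122083 to 20155117) encodes glycogenin, the protein primer of glycogen. Its RNA was 165 and 174 CPM in Ctrl and 231 and 234 in cKO, 37.4% higher (0.46 on the log2 scale, SE 0.058, adjusted p = 7.1e-05), and its footprints were 196 and 213 CPM in Ctrl and 263 and 249 in cKO (0.32, SE 0.08, adjusted p = 0.0118). Gys1 (ENSMUSG00000003865, chromosome 7, 45434839 to 45456617, overlapping Ruvbl2) encodes muscle glycogen synthase, which lengthens the chain on that primer. Its RNA was 137 and 147 CPM in Ctrl and 104 and 118 in cKO (−0.36, SE 0.072, adjusted p = 0.00301), and its footprints were 210 and 199 in Ctrl and 158 and 147 in cKO (−0.42, SE 0.081, adjusted p = 0.00194). The primer gene thus stood higher and the synthase gene lower in every cKO library of both assays.

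Ugp2, which makes the UDP-glucose that the synthase uses (chromosome 11, 21321126 to 21371267, overlapping Vps54 and Mir1933), had RNA of 202 and 186 CPM in Ctrl and 234 and 219 in cKO (0.22, SE 0.062, adjusted p = 0.0273). Its footprints were 358 and 335 CPM in Ctrl and 439 and 443 in cKO (0.35, SE 0.076, adjusted p = 0.0053). Gbe1, the branching enzyme (chromosome 16, 70313949 to 70569720), had RNA of 46.2 and 43.4 CPM in Ctrl and 58.1 and 55.0 in cKO (0.34, SE 0.076, adjusted p = 0.0074). Its footprints were only 3.74 and 5.53 CPM in Ctrl and 6.24 and 5.74 in cKO and did not pass (0.36, SE 0.204, adjusted p = 0.275). The Ugp2 RNA call was lost without Ctrl 2 (adjusted p = 0.221), without cKO 1 (0.193) and in DESeq2 (0.0958), over a range of 0.00156 to 0.221. Without cKO 1 the adjusted p was 0.0848 for Gbe1 RNA (range 0.000832 to 0.0848), 0.181 for Gyg footprints (range 0.00121 to 0.181, 0.0609 without Ctrl 1) and 0.0559 for Ugp2 footprints (range 0.000257 to 0.0559).

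Of the 5 genes of glycogen breakdown, Pygb and all 3 listed subunits of phosphorylase kinase fell in both heart assays, and Pygm did not pass in either. This is 80.0% called in each assay, against 14.4% of all genes in RNA and 16.4% in footprints. Phkg1 (ENSMUSG00000025537, chromosome 5, 129863431 to 129879134, overlapping Sumf2) encodes the catalytic subunit of the muscle kinase. It had RNA of 18.4 and 19.7 CPM in Ctrl and 9.31 and 9.82 in cKO, so that it fell by 49.9% (−0.996, SE 0.12, adjusted p = 4.5e-05), and footprints of 50.4 and 52.0 CPM in Ctrl and 25.4 and 21.0 in cKO (−1.14, SE 0.107, adjusted p = 3.4e-06). Phka1, the regulatory alpha subunit of muscle (chromosome X, 102513975 to 102644301), had RNA of 49.2 and 51.6 CPM in Ctrl and 36.8 and 35.2 in cKO (−0.48, SE 0.079, adjusted p = 0.000634). Its footprints were 77.3 and 67.2 CPM in Ctrl and 51.5 and 45.2 in cKO (−0.58, SE 0.099, adjusted p = 0.000894). Every cKO library of both genes lay below the Ctrl libraries.

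Phkb, the beta subunit (chromosome 8, 85840853 to 86064251, overlapping Itfg1, Gm16167 and Gm19171), had RNA of 42.8 and 44.1 CPM in Ctrl and 36.3 and 33.8 in cKO (−0.31, SE 0.082, adjusted p = 0.019). Its footprints were 48.9 and 43.4 CPM in Ctrl and 32.7 and 33.1 in cKO (−0.49, SE 0.097, adjusted p = 0.00254). The Phkb RNA call was lost without Ctrl 2 (adjusted p = 0.0514), without cKO 2 (0.136), with library totals (0.0715) and in DESeq2 (0.111), over a range of 0.00519 to 0.136.

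Pygb (ENSMUSG00000033059, chromosome 2, 150786796 to 150831748), the brain form of glycogen phosphorylase that the heart also makes, had RNA of 920 and 955 CPM in Ctrl and 717 and 761 in cKO (−0.34, SE 0.051, adjusted p = 0.000303). Its footprints were 1668 and 1644 CPM in Ctrl and 1088 and 1137 in cKO (−0.57, SE 0.074, adjusted p = 7.5e-05). Pygm, the muscle form, had RNA of 999 and 970 CPM in Ctrl and 997 and 1032 in cKO, and footprints of 2249 and 2355 in Ctrl and 2057 and 2059 in cKO (0.04 and −0.16, adjusted p = 0.618 and 0.161). Pgm1 and Pgm2, the phosphoglucomutases that join glycogen to glycolysis, lay between 0.02 and 0.12 in both assays and did not pass.

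Translational efficiency, the ratio of footprints to RNA, was tested by the genotype-by-assay interaction term in 1 model of the 8 heart libraries. None of the 32 members tested passed, against 0.126% of 12662 genes, 0.0711% higher and 0.0553% lower (16 genes, with 1227 at an unadjusted p under 0.05), and DESeq2 called 46 genes and 0 members. The smallest adjusted p among the members was that of Ldha, at 0.32, with a log2 change of −0.36 (SE 0.113, unadjusted p = 0.00596). Pygb, at −0.25 (SE 0.09), had an unadjusted p of 0.0138. The estimates were below 0 for 27 members and above 0 for 5, with a median of −0.14 against −0.02 over all genes tested, and that median was −0.06 without the cKO 2 libraries. The log2 ratio of footprint CPM to RNA CPM in Ctrl was −3.27 for Gbe1, −1.42 for Eno1 and −1.21 for Ldha, and 1.93 for Pgam2. The part of read mapping in these ratios was not tested. For Gapdh the log2 ratio was −11.1, which rests on a footprint level that is uncertain, as given above.

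Footprints per frame length compare levels between genes on 1 scale, CPM per 100 codons. Gapdh, Pgk1 and Pgam1, whose footprint levels are uncertain as given above, cannot be ranked on it. Among the other genes the means of Ctrl hearts were highest for Eno3 (733 ± 20.8, SD, n = 2), Aldoa (565 ± 52.8), Pgam2 (551 ± 43.3) and Ldhb (502 ± 23.7). The Ctrl libraries of Aldoa (528 and 602) and Pgam2 (521 and 582) overlapped, and those of Ldhb (519 and 486) lay below both. Pygm (273 ± 8.85) stood above Pygb (196 ± 1.98) and Pfkm (195 ± 5.98), which did not differ beyond their spread. Slc2a4 (145 ± 4.69) was the highest carrier, with Slc2a1 at 6.05 ± 0.243 and Slc2a12 at 0.957 ± 0.152. In glycogen synthesis, Ugp2 (68.2 ± 3.25) and Gyg (61.5 ± 3.75) stood above Gys1 (27.7 ± 1.08) and Gbe1 (0.66 ± 0.18), and the kinase subunits were at 13.2 ± 0.293 (Phkg1), 5.82 ± 0.576 (Phka1) and 4.25 ± 0.355 (Phkb).

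**Figure D3:**
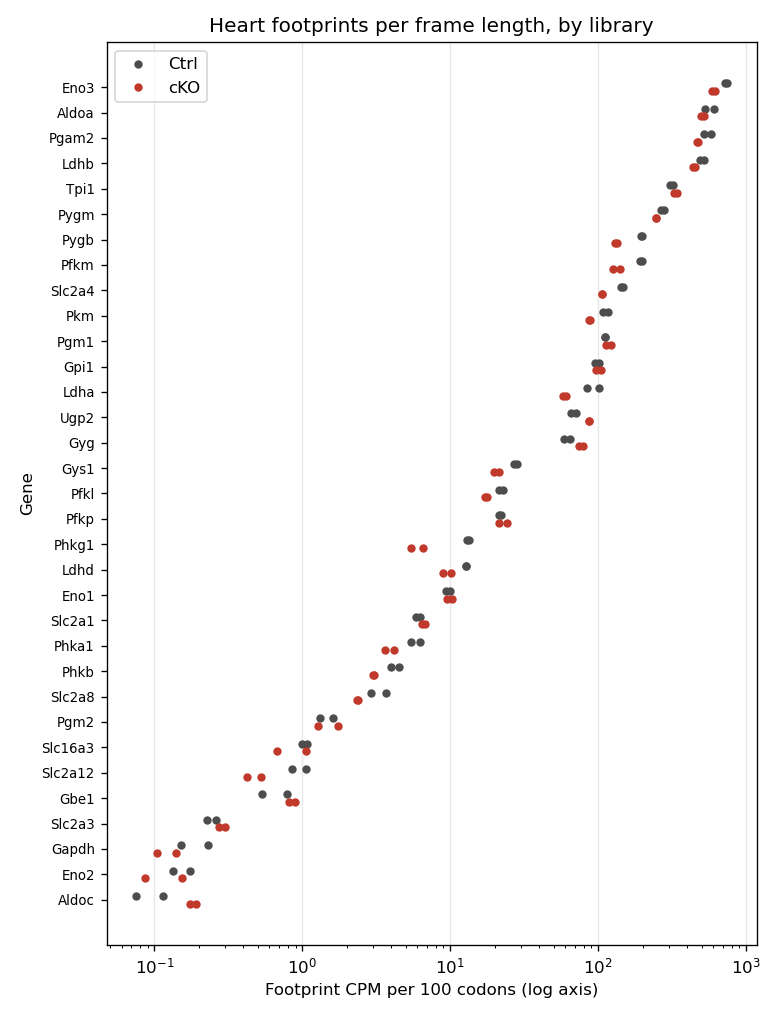
Heart footprints per frame length (horizontal axis, CPM per 100 codons, log axis) in each library for the 33 genes with footprints above 0 in every library (vertical axis, ordered by the Ctrl mean); Ctrl in grey, cKO in red. Eno3 is at the top at 719 and 748 in Ctrl and 614 and 587 in cKO, and the red points of Phkg1, Slc2a12, Pygb, Pfkm and Ldha lie to the left of the grey ones.

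Isozymes of 1 step were compared as shares of the footprints per codon within each library, for pairs chosen after their values were seen and so with no test. Pfkm held 81.5% and 81.9% of the phosphofructokinase footprints in Ctrl and 77.0% and 76.5% in cKO, while Pfkp held 9.39% and 8.77% in Ctrl and 13.3% and 13.0% in cKO. Pygb held 42.5% and 41.1% of the phosphorylase footprints in Ctrl and 34.6% and 35.5% in cKO, the rest being Pygm. Ldha held 13.9% and 17.3% of the footprints on Ldha and Ldhb in Ctrl and 11.4% and 12.1% in cKO. The log2 ratio of Ldha to Ldhb counts in Ctrl was −0.50 and −0.43 in RNA but −2.52 and −2.15 in footprints. The part of read mapping in this gap was not tested. Slc2a1 held 3.72% and 4.07% of the carrier footprints in Ctrl and 5.57% and 5.83% in cKO, with Slc2a4 at 93.8% and 92.7% in Ctrl and 91.8% and 91.4% in cKO. The genotypes were apart in each of these shares.

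Within heart RNA the log2 ratio of Gyg to Gys1 was 0.27 and 0.24 in Ctrl and 1.15 and 0.99 in cKO, a difference of 0.82 that ran from 0.74 to 0.90 when 1 library was left out. The difference was 0.46 for Pfkp over Pfkm, 0.45 for Slc2a1 over Slc2a4, −0.39 for Pygb over Pygm and −0.30 for Ldha over Ldhb. In footprints the same differences were 0.75, 0.63, 0.58, −0.41 and −0.46, and each pair was apart between genotypes in both assays. The footprint difference of Ldha over Ldhb ran from −0.65 to −0.28 when 1 library was left out, and those of the other 4 pairs from 0.65 to 0.85, 0.58 to 0.68, 0.50 to 0.65 and −0.46 to −0.37. Each of these pairs, and each family of shares above, holds a called gene, so their being apart repeats calls already given. Of the pairs left out, Pfkl over Pfkm differed by 0.28 in RNA and 0.22 in footprints and Eno1 over Eno3 by 0.32 in each, all apart. Pgam1 over Pgam2 overlapped in RNA (0.09) and lacked the counts for a ratio in footprints. With 2 libraries against 2, an exact permutation test cannot go below p = 0.333, so none is given.

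In Mettl1-null H9C2 cells, 9 of 34 tested members fell (Pfkm, Pfkl, Pfkp, Tpi1, Pgam1, Ldha, Ldhb, Gbe1 and Pgm1) and 4 rose (Slc2a1, Slc2a4, Eno3 and Pkm), while 21 did not pass. Of all 14801 genes tested, 25.1% passed, 13.6% higher and 11.5% lower. With library totals 6 members rose (Gys1, adjusted p = 0.0351, and Ugp2, 0.0382, were added) and 8 fell, and the split over all genes went from 2014 higher and 1706 lower to 2341 and 1370. Libraries were apart for 21 of the 34, against 42.6% of all genes. The median log2 fold change was −0.07 against 0.00 over all genes, and it was −0.02 without WT 2 and −0.04 without null 3. Of 5 fibroblast markers found there, 4 were tested and 3 fell, with sums of 9254 to 9706 CPM in WT and 7531 to 7964 in Mettl1-null. Col1a1, with means of 9477 and 7762 CPM, made up most of these sums. The other fibroblast markers that fell, Dcn (0.39 and 0.0387) and Lum (1.42 and 0.12), were near the floor. Of the 3 cardiomyocyte markers tested, Tnnt2 fell and Pln rose. Of 6 skeletal muscle markers 2 rose (Acta1 and Myh4), with sums of 241.5 to 286.4 CPM in WT and 378.2 to 408.7 in Mettl1-null. Myh4 made up most of these sums (means of 257 and 381 CPM), and Acta1 was at 0.816 and 4.05. Of 5 pericyte and smooth muscle markers tested 2 rose (Myh11 and Tagln) and 3 fell (Pdgfrb, Kcnj8 and Abcc9), with sums of 1606 to 1737 and 1744 to 1783. The part of these shifts was not tested.

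Ldhb had the largest called change of the 35 genes in H9C2, at 449, 474 and 419 CPM in WT and 232, 249 and 237 in Mettl1-null, so that it fell by 46.5% (−0.90, SE 0.059, n = 3 against 3, adjusted p = 2.3e-05). Ldha was 975, 959 and 906 CPM in WT and 754, 807 and 786 in Mettl1-null (−0.28, SE 0.049, adjusted p = 0.00426). The log2 ratio of Ldha to Ldhb was 1.12, 1.02 and 1.11 in WT and 1.70, 1.70 and 1.73 in Mettl1-null. It was higher in the null cells, with no overlap, and lower in the cKO hearts, and the difference between the systems was not tested.

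Tpi1, triosephosphate isomerase, fell from 227, 229 and 206 CPM to 145, 165 and 156 (−0.51, SE 0.065, adjusted p = 0.000788). Pgam1, the widely expressed phosphoglycerate mutase, fell from 1001, 1072 and 958 CPM to 812, 795 and 824 (−0.32, SE 0.052, adjusted p = 0.00268), and Pgm1 fell from 80.0, 85.5 and 75.9 to 62.7, 62.5 and 65.5 (−0.34, SE 0.059, adjusted p = 0.00361). All 3 phosphofructokinase genes fell. Pfkl went from 67.7, 69.2 and 71.1 CPM to 55.0, 52.9 and 52.4 (−0.38, SE 0.052, adjusted p = 0.00107), Pfkm from 301, 271 and 299 to 246, 250 and 246 (−0.23, SE 0.054, adjusted p = 0.0145) and Pfkp from 81.2, 81.5 and 83.8 to 72.2, 71.5 and 75.3 (−0.17, SE 0.049, adjusted p = 0.0344). In each of these genes the null libraries lay below the WT libraries.

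The carriers that rose were Slc2a4, at 27.4, 28.3 and 27.2 CPM in WT and 33.8, 38.3 and 35.2 in Mettl1-null (0.37, SE 0.067, adjusted p = 0.00431), and Slc2a1, at 9.01, 10.2 and 7.14 in WT and 12.0, 11.2 and 12.1 in Mettl1-null (0.42, SE 0.133, adjusted p = 0.0476). Eno3 rose from 34.8, 36.2 and 33.8 CPM to 45.8, 45.3 and 47.9 (0.41, SE 0.058, adjusted p = 0.00128). Pkm rose from 1519, 1546 and 1478 CPM to 1779, 1697 and 1739 (0.20, SE 0.043, adjusted p = 0.0102). Gbe1 was the glycogen gene that fell, from 32.4, 29.8 and 33.2 CPM to 24.1, 25.6 and 22.9 (−0.39, SE 0.073, adjusted p = 0.00486). None of the 5 genes of glycogen breakdown passed in H9C2, and Phkg1 was at 0.189 to 0.339 CPM there. Pgk1, Gpi1 and Eno1 lay between −0.04 and 0.05 and did not pass.

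Some H9C2 calls near the threshold were lost under alternatives, again with the direction unchanged. Slc2a1 did not pass without WT 1 (adjusted p = 0.111), WT 3 (0.0704), null 1 (0.135), null 2 (0.0921) or null 3 (0.139), nor with relative-log-expression factors (0.051), no count filter (0.0722) or the replicate block (0.0669), over a range of 0.0105 to 0.139. Its log2 fold change ran from 0.29, without WT 3, to 0.54. Pfkp did not pass without WT 1 (0.0926), null 1 (0.111), null 2 (0.128) or null 3 (0.0752), with library totals (0.0899) or under the block (0.0792), over 0.00784 to 0.128, at log2 fold changes of −0.19 to −0.13. Pfkm did not pass without WT 1 (0.0718), null 1 (0.0598), null 2 (0.0546) or null 3 (0.0691), over 0.000408 to 0.0718, at −0.28 to −0.19. Pkm did not pass without WT 1 (0.0506), null 1 (0.054) or null 3 (0.0573), over 0.000358 to 0.0573, at 0.18 to 0.24. Without WT 3, Slc2a8 (0.0178), Aldoa (0.0258) and Gys1 (0.0386) passed, where the adjusted p of their alternatives ran from 0.0178 to 0.211, 0.0258 to 0.811 and 0.0351 to 0.22. The number of members called higher was 2 without WT 1, without null 1 and without null 3.

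**Figure D4:**
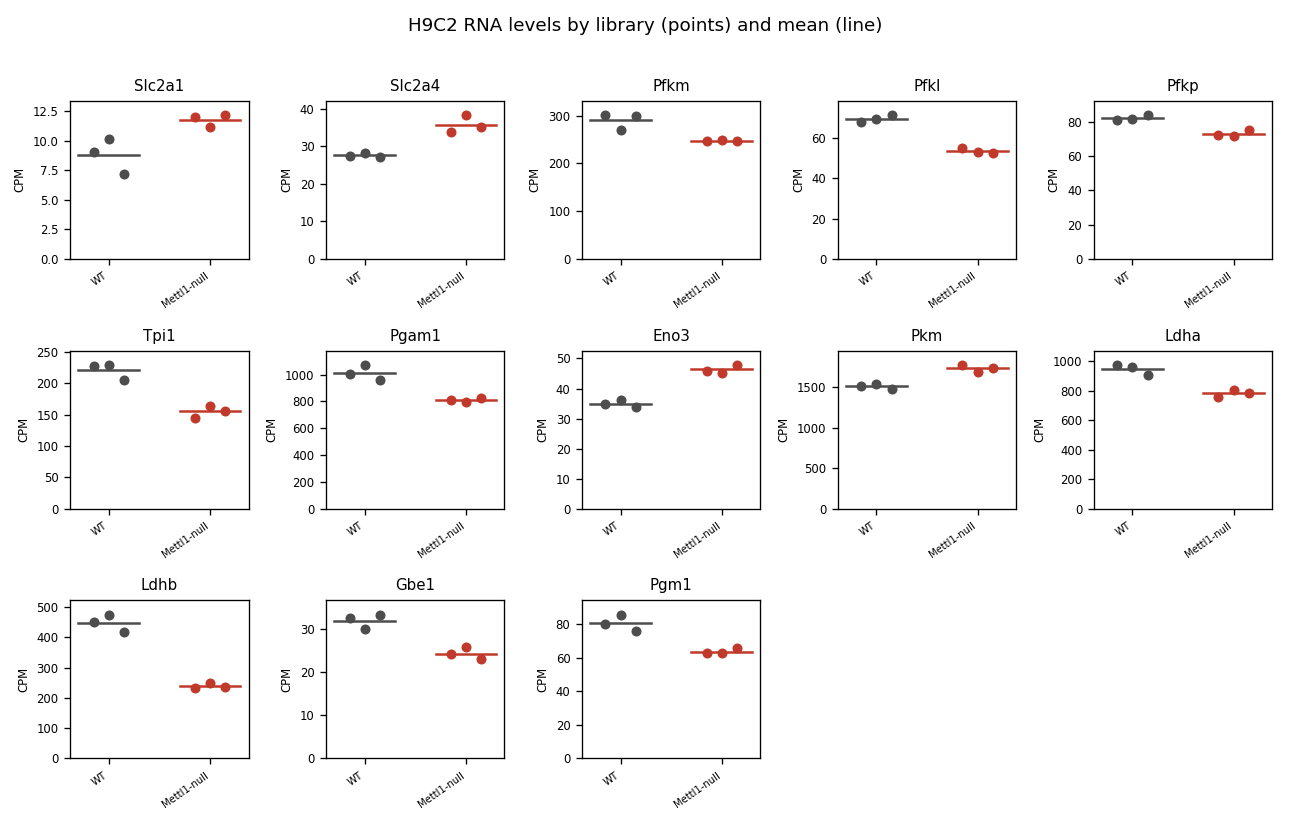
RNA levels of the 13 genes called in H9C2 in each library (points, CPM with TMM factors, linear axes from 0; lines are group means), WT in grey and Mettl1-null in red. The null libraries lie above the WT libraries for Slc2a1, Slc2a4, Eno3 and Pkm and below them for the other 9 genes, with Ldhb falling from 419 to 474 CPM to 232 to 249 CPM.

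The neighbouring genes of these pathways were read from lists. The share of all genes called was 14.4% in heart RNA, 16.4% in footprints and 25.1% in H9C2. Of 6 genes that phosphorylate glucose or reverse that step, Hk1 rose and Hk2 fell in cKO heart RNA. Hk1, the widely expressed form (overlapping Hk1os), rose by 0.41 in RNA and 0.40 in footprints (adjusted p = 0.000179 and 0.00308), and Hk2, the insulin-responsive muscle form, had −0.31 in RNA (adjusted p = 0.0014). In H9C2 Hk1 (0.23, adjusted p = 0.0286) and Adpgk (0.34, 0.0101) rose and Hk2 fell by 0.58 on the log2 scale (0.00133).

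Of 7 genes that control phosphofructokinase or run it backwards, Pfkfb1 and Fbp2 fell in both heart assays. Pfkfb1, which makes and removes fructose 2,6-bisphosphate (chromosome X, 150587445 to 150643878, overlapping Apex2), went from 9.72 ± 1.37 to 4.07 ± 0.923 CPM in RNA (−1.27, adjusted p = 0.000332) and from 15.7 ± 0.609 to 4.6 ± 0.717 in footprints (−1.77, adjusted p = 1.6e-06). Fbp2, the muscle fructose bisphosphatase, had −0.55 and −0.40 (adjusted p = 0.00714 and 0.00297). Of 14 genes of pyruvate use, 7 fell and 1 rose in heart RNA and 7 fell in footprints. Pdp2, a phosphatase that activates pyruvate dehydrogenase, had −0.75 in RNA and −0.84 in footprints (adjusted p = 6.9e-05 and 4.7e-05), and Pdhx, Dld and Dlat, subunits of the complex, had −0.49, −0.51 and −0.40 in RNA. Mpc1, a subunit of the mitochondrial pyruvate carrier named after its value was seen, rose by 0.30 in RNA (adjusted p = 0.0127).

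Of 18 genes of glycogen control, 2 rose and 1 fell in each heart assay, of 17 tested in RNA (17.6%) and 16 in footprints (18.8%), shares near those of all genes (14.4% and 16.4%). Stbd1, a glycogen-binding protein, had 0.87 in RNA and 0.75 in footprints (adjusted p = 7.9e-05 and 0.00112), and Nhlrc1, the ubiquitin ligase malin, had 0.71 and 0.57 (0.00884 and 0.0162). Ppp1r3b fell in RNA (−0.37, adjusted p = 0.0108) and Epm2a, the phosphatase laforin, in footprints (−0.63, 0.000478). In H9C2, Ppp1r3d rose (2.30, adjusted p = 2.6e-05) and Ppp1r3c fell (−1.13, 0.000141), both glycogen-targeting subunits of protein phosphatase. Ppp1r3a, another such subunit, had 97 counts over the WT libraries and 0 over the null libraries, at least 34.0-fold lower against a floor of 3 counts over the group.

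Of 15 genes of side branches, all tested in the heart, 3 rose and 2 fell in RNA (33.3% against 14.4% of all genes) and 2 rose in footprints (13.3% against 16.4%). Gpd1, cytosolic glycerol-3-phosphate dehydrogenase, rose from 66.8 ± 1.43 to 114 ± 2.47 CPM in RNA (0.78, adjusted p = 1.4e-06) and by 0.59 in footprints (0.000378). In H9C2 4 rose and 5 fell of 13 tested (69.2% against 25.1%), among them Taldo1 (0.55, adjusted p = 0.000702) and Rpia (−0.73, 0.000582) of the pentose phosphate pathway. Of 10 genes of transport control found in the heart table, Tbc1d1 rose (0.38, adjusted p = 0.0102) and Akt2 fell (−0.25, 0.00785) in RNA, and Tbc1d4, which holds Glut4 inside the cell, fell in footprints (−0.43, 0.00412). Of 4 lactate carriers and their partners, Slc16a1 rose in heart RNA (0.19, adjusted p = 0.0439) and Slc16a7 in H9C2 (0.46, 0.000663). Of 15 transcriptional regulators, 2 rose and 4 fell in each heart assay: Ppargc1a, a coactivator of mitochondrial genes, had −0.97 in RNA (adjusted p = 4.9e-07), Ppara −0.39 (0.00366), Mef2a −0.31 (0.00467) and Myc 1.05 (0.000714). In H9C2, Mef2c rose (0.37, adjusted p = 0.00158) and Hif1a fell (−0.24, 0.0139).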

How the data were processed

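The authors deposited whole-number counts without normalization, per gene for both RNA-seq tables and per reading frame for Ribo-seq. Units were read from the values. The submitters' processing notes list the aligners Bowtie, Bowtie2, STAR and HISAT2, with featureCounts, StringTie, cutadapt and DESeq2, and the builds Rnor_6.0 and GRCm38, with no role given. Which tool made which table, its version and its strand setting are not given in the sources used here, so genes that overlap others are uncertain. The H9C2 counts may derive from transcript coverage written by StringTie, which the sources used here do not settle.

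Genes were matched by symbol, with mouse IDs taken without their version, and the rat symbols Gpi and Gyg1 stood for Gpi1 and Gyg. Of 26398 frames of 17866 genes, the most-covered frame, by its total over the 4 libraries, was kept per gene. Kept frames hold 98.914% of footprints, and for the 35 genes the kept frame was the longest. Each comparison was fitted on the whole table with edgeR 4.0.16 in R 4.3.3 (glmQLFit, glmQLFTest, TMM, filterByExpr, Benjamini-Hochberg over all genes at 0.05). The SE was the absolute log2 fold change divided by the square root of F. The low-count filter removed Aldoc from heart RNA, Pgk1 and Pgam1 from footprints and all 3 from translational efficiency, which was fitted on genes that passed in both assays. Isozyme ratios needed at least 10 counts of each gene in every library.

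Alternatives were relative-log-expression factors, library totals, DESeq2 1.42.0, at least 1 count as the sole filter, a minimum of 50 counts in all libraries of 1 group, the replicate number as a block, each library left out, and for footprints the sum over frames or the longest frame. The fits were also run on simulated data, with set changes larger than most of those described here. That run does not bear on smaller changes. Members past 0.05 in any comparison are described with values, the others by range or value, and up to 4 genes of each further list with the smallest adjusted p among those past 0.05. The 35 genes, the lists and the tests were chosen with earlier results of these data known. Some genes of the further lists are not reported here. The 4 tRNA libraries were not used here. Promoters came from RefSeq (GRCm38.p6).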

Additional observations from a re-analysis of the deposited data

Results flagged for a closer look

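Slc2a4, Eno3 and Gbe1 moved in opposite directions in the 2 systems, with every library of the edited group on 1 side of its controls in heart RNA and every library on the other side in H9C2. Slc2a4, the insulin-responsive glucose carrier, had a log2 fold change of −0.36 in cKO hearts and 0.37 in Mettl1-null H9C2. Eno3, the muscle enolase, had −0.16 in hearts and 0.41 in H9C2. Gbe1, the glycogen branching enzyme, had 0.34 in hearts and −0.39 in H9C2. The heart RNA calls of Eno3 and Gbe1 were lost under some alternatives, as given above. The difference between the systems was not tested, since they differ in species, table and library preparation.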

How the results depend on the processing

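The count of genes called in heart RNA was 2032 with edgeR, 1080 with DESeq2 and 1155 to 2002 with 1 library left out, with members higher at 3, 5 with library totals and 1 to 3 with 1 library left out. Footprints gave 1148 to 1940 genes with 1 library left out against 2221, and members higher at 0 to 2 against 2. Translational efficiency gave 16 genes, 46 with DESeq2, 135 under the replicate block and 2 to 11 with a pair of libraries left out, with 0 members in each. H9C2 gave 2354 to 4455 genes with 1 library left out against 3720, and members higher at 2 to 4 against 4.

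With the replicate number as a block, 2745 genes were called in heart RNA, 2727 in footprints and 3147 in H9C2. In heart RNA Aldoa (adjusted p = 0.0437) and Pkm (0.00997) were added, and in H9C2 Pfkp (0.0792) and Slc2a1 (0.0669) were lost. The labels do not say whether the numbers pair the samples. Deviations from the group means of libraries with the same number correlated at 0.009 in heart RNA and −0.04 in footprints. In H9C2 they correlated at 0.007, 0.048 and −0.053, and not every sample correlated best with its own number. With 2 libraries per heart group the deviations mirror each other, so the heart values cannot decide on pairing. Pairing of RNA with footprint libraries by number was not tested.

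The values that turned sign belong to members that did not pass in that comparison. With library totals the log2 fold change in heart RNA was 0.068 for Gapdh, 0.072 for Pgam2 and 0.072 for Ldhb, and in H9C2 0.031 for Gpi1 and 8.982e-05 for Pgm2. In translational efficiency Tpi1 was at 0.0021 with library totals, 0.0063 with no count filter and 0.0053 with the stricter one, and Gbe1 at 0.0048 in DESeq2, 0.0041 with no filter and 0.0029 with the stricter one. With 1 library left out the values ran, in heart RNA, from −0.046 to 0.232 for Slc2a3, −0.074 to 0.050 for Gapdh, −0.040 to 0.019 for Pgam2, −0.032 to 0.012 for Ldhb and −0.659 to 0.121 for Slc16a3. In footprints they ran from −0.033 to 0.082 for Gpi1, −0.022 to 0.167 for Pfkp, −0.029 to 0.087 for Eno1, −0.626 to 0.039 for Slc16a3 and −0.184 to 0.252 for Pgm2. In translational efficiency they ran from −0.057 to 0.133 for Slc2a1, −0.051 to 0.276 for Slc2a3, −0.121 to 0.052 for Gpi1, −0.053 to 0.154 for Pfkp, −0.197 to 0.093 for Aldoa, −0.0047 to 0.018 for Tpi1, −0.736 to 0.704 for Slc16a3, −0.208 to 0.087 for Gys1, −0.282 to 0.382 for Gbe1, −0.233 to 0.026 for Phka1, −0.331 to 0.029 for Phkg1, −0.0067 to 0.118 for Pgm1 and −0.340 to 0.193 for Pgm2. In H9C2 they ran from −0.193 to 0.011 for Slc2a3, −0.105 to 0.440 for Slc2a12, −0.048 to 0.051 for Gpi1, −0.0027 to 0.131 for Eno2, −0.404 to 0.058 for Pygm and −0.179 to 0.041 for Phkb.

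Where a library is left out, the lone sample of a group is assumed to vary like the others. The cause of these changes was not tested, beyond the fewer samples. Scaling by library totals raised the median over all genes by 0.080 (log2) in heart RNA, 0.069 in footprints and 0.038 in H9C2. Slc2a4, Slc2a12, Pfkm, Ldha, Gys1, Pygb, Phka1 and Phkg1 kept their calls in both heart assays under every alternative run, and Tpi1, Pgam1, Ldha, Ldhb, Pfkl, Gbe1, Pgm1, Slc2a4 and Eno3 did so in H9C2. Slc2a3, Slc16a3 and Eno2, at 0.965 to 5.66 CPM in heart RNA, had SEs of 0.225, 0.253 and 0.369 there and did not pass; the part of depth in this was not tested.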
